A study of Mus musculus with 4 samples.

Results

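Cycling luminal cells of the mouse mammary gland were examined in droplet RNA sequencing data of single epithelial cells. The gland is lined by 2 luminal lineages over an outer basal layer. Luminal progenitors (LP) express Elf5 and Kit and give rise to the milk-secreting alveolar cells, whereas mature luminal cells (ML) include the cells that carry the receptors for estrogen and progesterone. Dividing cells copy their DNA in S phase, pass G2 and separate their chromosomes in M phase, and each step has its own transcripts. In the adult gland proliferation follows the ovarian cycle, since progesterone is high in diestrus and acts on receptor-bearing cells, which signal to their neighbours through secreted factors.

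The libraries came from female FVB/NJ mice: 1 from pubertal glands at 5 weeks of age, 1 from adult glands at 10 weeks in estrus and 1 from adult glands of the same age in diestrus. No allele, transgene or treatment was named for any of them. The stage of the adults was read from vaginal smears, and each adult library held glands of 2 mice. By the paper's account the pubertal library was also a pool, of more mice than an adult one. Sorting kept CD24+ cells without blood or endothelial surface markers. Each stage was therefore 1 library. The tests give each library its own level, so p-values measure how differences between classes of cells vary over the 3 libraries. Stage and preparation vary together in that spread, and the spread between animals of a stage is not measured.

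Cells were chosen by the counts of 28 genes, and these counts are a description here, not a result. A luminal cell had at most 2 of 7 basal genes (Krt5, Krt17, Acta2, Myl9, Tagln, Mylk, Cnn1). An LP cell had at least 3 of 5 LP genes (Cd14, Lalba, Plb1, Atp6v1b1, Aldh1a3) and at most 1 of 6 ML genes (Stc2, Upk3a, Plac8, Tspan1, Prlr, Cited1), and an ML cell had the reverse. A cell of either lineage was called cycling when at least 3 of 10 division genes had a count: Mki67, Top2a, Birc5, Cdk1, Ccnb2, Cenpf, Ube2c, Tpx2, Nusap1 and Pbk. This gave 373 cycling luminal cells of 10596 cell barcodes. Cycling LP cells numbered 113, with 61 in puberty, 13 in estrus and 39 in diestrus. Cycling ML cells numbered 260, with 153, 55 and 52. They were compared, lineage by lineage, with 1436 LP and 2818 ML cells that had 0 of the 10 genes.

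Among the cycling cells the rule was met by different genes to different degrees. Birc5, a component of the mitotic chromosomal passenger complex, had a count in 84.6% to 100% of the cells of each library and lineage, whereas Mki67, the gene of the proliferation antigen Ki-67, had one in only 30.8% to 60%. At the border of the rule, 19 LP and 36 ML cells had exactly 3 of the genes and 21 LP and 81 ML cells had exactly 2. All 10 genes were seen in 10 LP and 26 ML cells.

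Total counts were 25365324 in the puberty, 10962454 in the estrus and 11868593 in the diestrus library. No cycling cell shared its barcode with a cycling cell of another library. A second puberty table held 99.2% of the same barcodes and was not counted as a replicate. Of the 214 pubertal cycling cells 177 were also cycling there in the same lineage. Cycling cells were deeper than the cells with 0 of the genes: the median total per cell ranged from 7892 to 10719 in the cycling and from 3344 to 4520 in the other cells, a ratio of 2.04 to 3.21. Depth-matched values are therefore given where they change a result. They use only comparison cells whose total lay between the lower and upper quartiles of the cycling cells of that lineage and library, which left 107, 4 and 14 LP cells and 133, 47 and 12 ML cells in puberty, estrus and diestrus.

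The labelled cell type was checked against markers of other cells. The 10 other basal genes summed to 30.8 to 109 CPM (counts scaled to a common total per class) in the cycling cells and to 34.8 to 98.6 CPM in the comparison cells. The 5 immune genes summed to 0 to 20.2 CPM in the cycling and 0.438 to 23.6 CPM in the other cells, and Ptprc, their defining marker, was at 0 in all 6 sums of cycling cells. For the 5 endothelial genes the sums were 8.10 to 29.1 and 5.58 to 22.8 CPM, with Cdh5 and Emcn at 0 in every cycling sum. The 5 fibroblast genes reached 101, 107 and 596 CPM in cycling ML cells and 415, 279 and 880 CPM in ML cells with 0 of the genes, against 0 to 13.2 CPM in LP cells. In the cycling ML cells of the estrus and diestrus libraries all of these counts came from Dcn, and Col1a1, Col1a2, Col3a1 and Pdgfra were at 0. The part of these transcripts in the results was not tested. Doublets were not called, and luminal cells with 3 or more genes of both lineages, 11 of 250 of which were cycling, were left out by the rule. The part of doublets in the deeper totals of the cycling cells was not tested.

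The promoters of the division genes show how S phase and mitotic genes differ in sequence. E2F factors bind sites such as TTCCCGC and TTGGCGC and act on genes of DNA replication, whereas many genes of G2 and M phase carry CCAAT boxes together with a cell cycle homology region, TTTGAA or TTTAAA. Each promoter of the RefSeq set on GRCm38.p6 covered 250 bases before to 50 bases after the start, and motifs were sought on both strands. The replication gene Mcm5 (chr8:75109259-75109558, plus strand), the mitotic kinase gene Cdk1 (chr10:69352863-69353162, minus strand) and the mitotic cyclin gene Ccnb2 (chr9:70421505-70421804, minus strand) are shown because Mcm5 and Cdk1 hold both kinds of motif and Ccnb2 holds only the mitotic kind. A further letter string of the E2F type that was searched was GCGCGAAA, read on the other strand as TTTCGCGC. Capitals mark every match to these motifs or to their reverse complements, and matches can overlap, as in Mcm5.
Mcm5: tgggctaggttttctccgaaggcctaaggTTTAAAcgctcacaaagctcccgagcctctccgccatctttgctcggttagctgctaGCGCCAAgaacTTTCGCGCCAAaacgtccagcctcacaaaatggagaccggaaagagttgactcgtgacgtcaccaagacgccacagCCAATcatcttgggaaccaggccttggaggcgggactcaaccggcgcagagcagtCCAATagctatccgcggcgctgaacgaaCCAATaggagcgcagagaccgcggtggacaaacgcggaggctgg
Cdk1: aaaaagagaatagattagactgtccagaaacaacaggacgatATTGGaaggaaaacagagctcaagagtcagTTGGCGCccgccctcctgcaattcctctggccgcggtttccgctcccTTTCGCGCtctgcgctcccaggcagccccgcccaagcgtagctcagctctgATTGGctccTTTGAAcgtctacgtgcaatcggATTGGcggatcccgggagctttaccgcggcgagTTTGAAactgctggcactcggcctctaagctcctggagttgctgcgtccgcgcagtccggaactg
Ccnb2: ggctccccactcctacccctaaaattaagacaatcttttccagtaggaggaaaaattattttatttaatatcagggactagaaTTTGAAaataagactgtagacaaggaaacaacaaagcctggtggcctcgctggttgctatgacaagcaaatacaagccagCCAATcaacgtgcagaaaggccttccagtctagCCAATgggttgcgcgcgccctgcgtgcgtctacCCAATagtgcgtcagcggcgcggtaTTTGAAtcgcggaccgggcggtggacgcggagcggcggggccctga

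Of the 32 S phase genes 26 had a promoter entry, and of the 56 genes of the G2 and M phase list with the 10 genes of the rule 45 had one. TTCCCGC or TTGGCGC was present in 48.3% of the S phase promoters, 12.8% of the G2 and M phase promoters and 6.81% of all 32851 promoters. GCGCGAAA or TTTCGCGC was in 17.2%, 2.13% and 0.323%. CCAAT together with TTTGAA or TTTAAA was in 17.2%, 68.1% and 10.7%. The E2F-type letters were thus more frequent in the S phase list and the mitotic combination in the G2 and M phase list. These are matches of letters in the 300 bases, not measured binding.

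The share of cycling cells in each lineage was compared across the stages. It was lowest in LP cells in estrus and highest in LP cells in diestrus, while the ML shares lay between 7.35% and 8.25%. In LP cells, 61 of 1055 (5.78%, exact Clopper-Pearson 95% interval 4.45 to 7.37) were cycling in puberty, 13 of 323 in estrus (4.02%, 2.16 to 6.78) and 39 of 283 in diestrus (13.8%, 9.99 to 18.4). In ML cells the values were 153 of 2031 (7.53%, 6.42 to 8.77), 55 of 748 (7.35%, 5.59 to 9.46) and 52 of 630 (8.25%, 6.23 to 10.7). The LP share was thus below the ML share by 1.75 percentage points in puberty and by 3.33 points in estrus, and above it by 5.53 points in diestrus. The intervals of all such shares cover counting error only. With 1 library per stage there is no test between stages, and for LP against ML over 3 libraries the smallest p an exact two-sided sign test can give is 0.25.

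Because deeper cells show more genes, the shares were also taken after thinning to 2000 counts per cell. Cells with fewer counts were left out. The division genes were recounted in the thinned cells, whereas the lineage was still set from all counts. They then were 3.33% (33 of 990), 1.74% (5 of 288) and 8.33% (22 of 264) in LP and 5.03% (97 of 1929), 5.78% (40 of 692) and 4.41% (26 of 590) in ML cells of puberty, estrus and diestrus. The order of the lineages in each library was the same as without thinning. Among luminal cells with 0 of the 7 basal genes, the diestrus LP share was 9.28%.

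**Figure D1:**
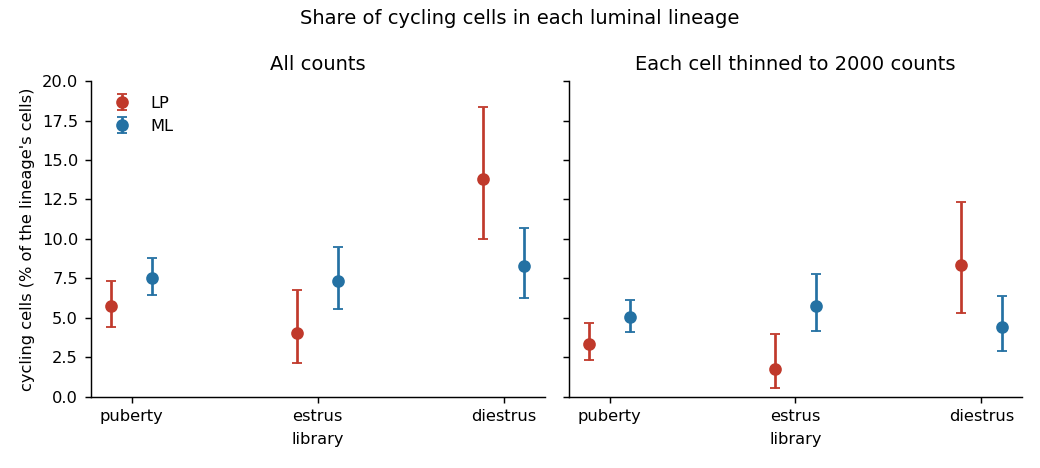
Share of cycling cells among LP and ML cells of each library, in percent, from all counts (left) and after cells with at least 2000 counts were thinned to 2000 (right). Points are shares and bars exact 95% intervals. LP cells of the diestrus library have the highest share in both panels, 13.8% and 8.33%.

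S phase and mitotic transcripts were then compared within the cycling cells. They moved with the genes of the rule, so their values are a description. Of the 30 S phase genes measured, 28 in LP and 29 in ML were at least 2-fold higher in the cycling cells in each of the 3 libraries, as were 41 and 45 of 46 G2 and M phase genes and 17 and 20 of 22 chromatin and tubulin genes. Over all 8018 genes tested that pattern was met by 3.64% in LP and 4.33% in ML. The median difference of the S phase list was 2.45 in LP and 3.26 in ML on the log2 scale, and that of the G2 and M phase list was 5.77 and 5.69. In the G2 and M phase list 5 genes in LP and 3 in ML had no count in the comparison cells. With these set at the limit of 3 counts over the group, the list medians were 5.40 and 5.67, so no order of the lineages is read. The median of all genes was -0.11 in LP and -0.02 in ML.

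The balance of the lists varied with stage. Cycling ML cells of the estrus library had a median of 63.6 G2 and M phase counts per 10000 against 26.3 S phase counts, and 27.3% of them (15 of 55, interval 16.1 to 41.0) had more S phase than G2 and M phase counts. In puberty that share was 41.8% (64 of 153, 33.9 to 50.1) and in diestrus 44.2% (23 of 52, 30.5 to 58.7). In LP cells the share with more S phase counts was 32.8% in puberty (20 of 61, 21.3 to 46.0), 38.5% in estrus (5 of 13, 13.9 to 68.4) and 51.3% in diestrus (20 of 39, 34.8 to 67.6). Cycling LP cells of diestrus were the only class of the 6 with a higher median for S phase, 46.6, than for G2 and M phase, 36.2 per 10000. The intervals of the stages overlap. Such shares come from cells chosen by mostly mitotic genes and do not measure the length of a phase. S phase genes were also seen outside the cycling cells, where 12.1%, 21.1% and 30.6% of LP and 20.6%, 23.3% and 34.5% of ML cells with 0 of the 10 genes had at least 3 of them in puberty, estrus and diestrus.

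**Figure D2:**
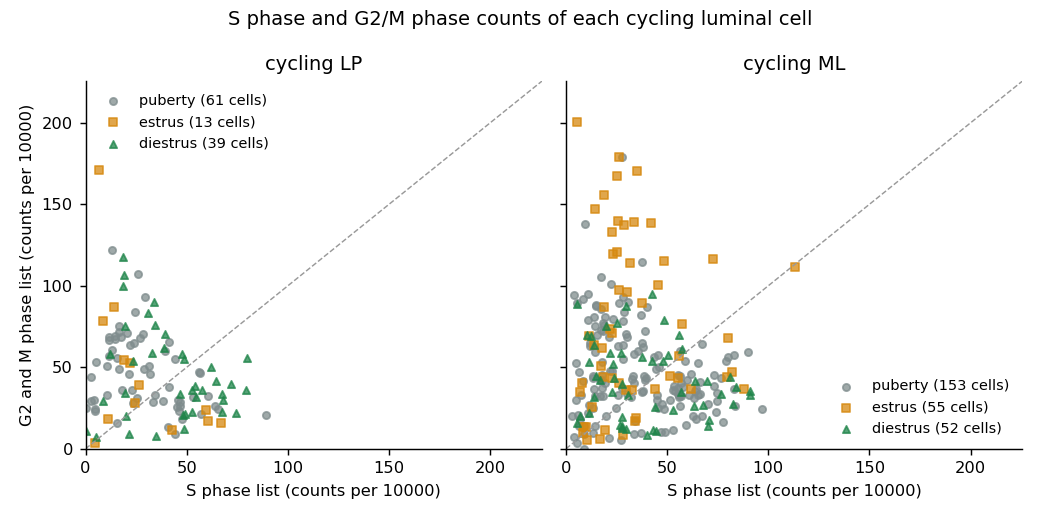
Each point is 1 cycling LP (left) or ML (right) cell, by its counts of the S phase list (x axis) and of the G2 and M phase list (y axis) per 10000 counts; the dashed line marks equal values. Cells spread along both axes, and the cycling ML cells of the estrus library have the highest median on the y axis, 63.6.

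Genes outside the rule were compared between cycling cells and cells with 0 of the genes. Counts were summed per library and class, which gave 12 sums, and tested with edgeR's quasi-likelihood test with the library as a block and Benjamini-Hochberg adjustment over all genes. All adjusted p-values below come from it, and levels are CPM after TMM normalisation, given in the order puberty, estrus, diestrus. With the threshold for adjusted p set at 0.05, cycling LP had 777 higher genes (9.69% of 8018) and 991 lower ones (12.4%), and in cycling ML 1162 were higher (14.5%) and 992 lower (12.4%). Against depth-matched cells these counts were 332 and 273 in LP and 454 and 247 in ML, of 5815 genes. No gene called in both fits changed direction.

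Among genes outside the lists, those with the smallest p that were higher in cycling cells included further genes of replication and mitosis, so their direction follows the choice of cells. 2810417H13Rik, also called Pclaf, encodes a PCNA-binding factor (chromosome 9, 65890237 to 65903266, plus strand, mm10). Its level was 815, 314 and 608 CPM in cycling LP against 5.0, 0 and 4.9 in the other LP cells, and 825, 574 and 478 against 4.9, 1.3 and 4.0 in ML. The groups did not overlap in either lineage. The share of all genes whose groups did not overlap was not counted, so this and later such separations are a description. Lig1, the replicative DNA ligase, had 119, 118 and 112 CPM against 14.3, 12.7 and 14.7 in LP and 110, 60.3 and 97.7 against 11.2, 6.97 and 9.69 in ML. The anaphase regulator Pttg1 was higher in LP by 3.34 on the log2 scale, and the replication licensing inhibitor Gmnn was higher in ML by 3.74. Shcbp1 and the kinetochore gene Ska1, named in LP, and Ska1 and the phosphatase gene Cdkn3, named in ML, had at most 1.23 CPM in the sums of cells with 0 of the genes. Hist1h2ap, a histone H2A gene, was higher in both lineages but ranged from 503 CPM in puberty to 9.4 in diestrus among cycling LP cells. Histone genes have near-identical copies, so its counts are uncertain.

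Genes of the LP lineage were mostly lower in cycling LP cells than in the other LP cells. Of 16 LP genes not used by the rule, 10 fell and 0 rose, with a list median of -1.05 on the log2 scale. Over all genes tested 12.4% fell and 9.69% rose in LP. The median share of mitochondrial counts per cell moved with this difference, at 0.901%, 0.688% and 0.549% in cycling LP against 0.553%, 0.491% and 0.423% in the other LP cells. In ML it was 1.02%, 0.971% and 0.754% against 1.11%, 0.999% and 0.777%. Its part in the results was not tested. The members that fell included milk and defence proteins as well as the alveolar factor Elf5. Trf, the gene of the iron carrier transferrin (chromosome 9, 103204001 to 103230444, minus strand), had 7418, 5491 and 4058 CPM in cycling LP and 41879, 26871 and 18286 in LP cells with 0 of the genes. All cycling values lay below all others, and Trf fell by 2.31 on the log2 scale (SE 0.34, adjusted p = 4.92e-05). Ltf, the antimicrobial protein lactoferrin, had 839.7, 779 and 140.4 CPM against 3194, 2501 and 1534, and fell by 2.32 (adjusted p = 1.31e-05). Against depth-matched cells its fall was 1.15 on the log2 scale (adjusted p = 0.0424). Elf5 had 183, 432 and 236 CPM against 431, 664 and 458, groups that overlap narrowly, and fell by 0.95 (SE 0.21, adjusted p = 0.00249). The milk protein gene Csn3 fell by 1.10 and the siderophore-binding Lcn2 by 1.42. Kit, a receptor tyrosine kinase of progenitors, had 43.1, 6.5 and 21.1 CPM against 60.6, 51.7 and 49.1 (adjusted p = 0.0401), and this call was lost against depth-matched cells, at -0.78 (adjusted p = 0.367). Wfdc18 differed by -0.25 on the log2 scale (adjusted p = 0.333) and did not pass. With depth-matched cells 7 of 14 LP genes fell, with a median of -1.05, against 273 of all 5815 genes.

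In cycling ML cells, 6 of the 14 measured ML genes outside the rule fell, 1 rose and 7 did not pass, with a median of -0.90. Over all genes tested 12.4% fell and 14.5% rose in ML. Ly6d, a surface antigen of the receptor-bearing cells, had 1719, 933 and 300.4 CPM against 4797, 4798 and 3146, and fell by 2.26 (SE 0.34, adjusted p = 4.49e-05). Gpx3, a secreted glutathione peroxidase, had 1628, 246 and 487 CPM against 4328, 1878 and 1660.5, and fell by 2.0 (adjusted p = 3.92e-07). For both genes, as for Ptn below, all cycling values lay below all values of the other ML cells. The growth factor gene Ptn fell by 0.99 (adjusted p = 0.00023), from 9854, 11918 and 11134 to 6188, 4436 and 6025 CPM. Against depth-matched cells the Ptn value was -0.46 (adjusted p = 0.148). Areg, the EGF-family ligand made downstream of the estrogen receptor, was the gene that rose, by 0.66 (adjusted p = 0.00194), with 3550, 1076 and 2492 CPM against 2914, 455 and 1779. That call was lost against depth-matched cells, where the value was -0.03 (adjusted p = 0.941). With depth-matched cells 4 of the 14 genes fell and 0 rose, with a median of -0.58, against 247 and 454 of all 5815 genes. The 16 LP genes were also low in ML cells, and 7 of them fell in cycling ML. Trf, for instance, had 206, 11.1 and 12.4 CPM in cycling ML and 271, 250.4 and 117 in the other ML cells. The rule kept as ML only cells in which few LP genes of the rule had a count, and cycling ML cells were deeper. No count with depth-matched cells is given for the LP genes in ML. The part of the rule, of depth and of transcripts carried over from LP cells in these falls was not tested.

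The lineages were separated by the rule, and 143 cycling luminal cells that met neither definition were left out. The difference between cycling LP and cycling ML in other lineage genes is therefore a description. Counts of genes given here are calls of the same quasi-likelihood test at the threshold of 0.05. They do not test the separation of the lineages. Between them, 907 genes (11.3%) were called higher and 974 (12.1%) lower. Of the 16 LP genes 15 were called higher in cycling LP, with a list median of 5.54 on the log2 scale. The exception was Mia. Of the 14 ML genes 13 were lower in cycling LP, with a median of -4.64, or -4.31 when Tbx3 and Wnt5a, which had no count in cycling LP, are set at the limit of 3 counts over the group. Cbr2, a carbonyl reductase that was placed on the ML list, went the other way and was higher in cycling LP, with 26.7, 98.2 and 84.2 against 0.7, 0 and 1.8 CPM. Elf5 had 2.7, 0 and 3.6 CPM in cycling ML, a difference of 6.79 on the log2 scale. Csn3 differed by 7.62 and the bone matrix and milk protein gene Spp1, at 15537, 16996 and 6917 against 78.3, 14.3 and 19.5 CPM, by 8.41. The genes named by rule as higher in cycling ML were Areg, with 22.6, 6.5 and 9.4 CPM in cycling LP, Wfdc2, Ptn, the cysteine dioxygenase gene Cdo1, the serine synthesis gene Phgdh and Crym. Crym, a thyroid hormone-binding protein gene, had no count in cycling LP and 594, 563 and 295 CPM in cycling ML, at least 186-fold higher when cycling LP is set at 3 counts over the 3 libraries. Foxa1, the pioneer factor of receptor-bearing cells, was higher in cycling ML by 4.37, and Wnt5a at least 42.6-fold.

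**Figure D3:**
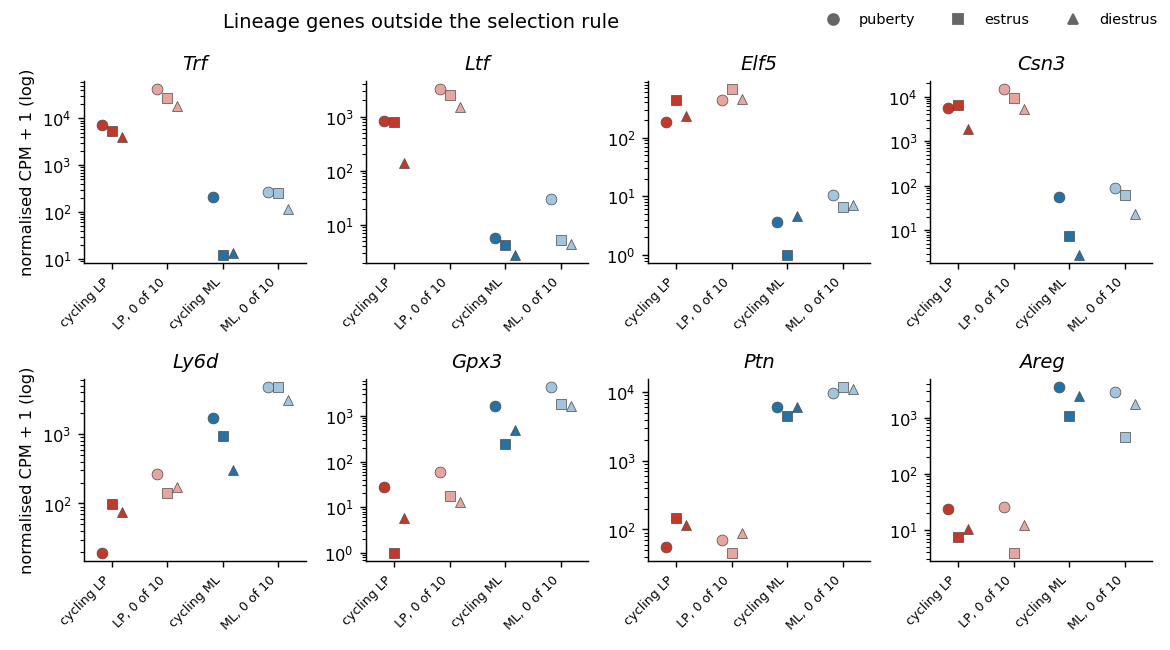
Normalised CPM plus 1, on a log axis, of 4 LP genes (top) and 4 ML genes (bottom) in cycling cells and in cells with 0 of the 10 genes; each symbol is 1 library. Each cycling sum of Trf and Ltf in LP and of Ly6d and Gpx3 in ML lies below all sums of the lineage's other cells. The lineages were set by the rule, so the gap between cycling LP and cycling ML in all 8 genes is a description.

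Receptors for the ovarian hormones were then followed in the cycling ML cells. Esr1 encodes the estrogen receptor and Pgr the progesterone receptor. An Esr1 count was seen in 21 of 153 (13.7%), 5 of 55 (9.09%) and 11 of 52 (21.2%) cycling ML cells, and in 9.06%, 11% and 10.3% of ML cells with 0 of the genes. After thinning to 2000 counts, these shares were 2.61%, 1.85% and 5.77% against 4.72%, 5.74% and 5.12%. The direction in puberty thus turned with depth, so no order is read from the shares. In the levels, Esr1 had 16.2, 7.9 and 21.3 CPM in cycling ML against 27.4, 26.5 and 24.2, a difference of -0.81 on the log2 scale that did not pass (SE 0.31, adjusted p = 0.0627). Pgr was counted in 37 of 153 (24.2%), 9 of 55 (16.4%) and 7 of 52 (13.5%) cycling ML cells and, after thinning, in 6.54%, 3.70% and 3.85% against 8.60%, 4.56% and 7.46% of the others, where the order in puberty and estrus turned as well against 16.8% and 9.58% before thinning. Its difference in levels was -0.55 (adjusted p = 0.151). For the background, in thinned LP cells with 0 of the genes the shares were at most 1.01% for Esr1 and 0 for Pgr, which allows up to 1.52% in the smallest library, and in thinned cells with 3 or more basal genes at most 0.803% and 1.27%. The thinned shares of cycling ML cells in estrus rest on 1 of 54 cells for Esr1 (exact interval 0.0469 to 9.89) and 2 of 54 for Pgr (0.452 to 12.7), and these intervals include the background. Among the 113 cycling LP cells 3 had an Esr1 count and 1 a Pgr count. Of the 17 hormone and paracrine genes 9 were measured well enough to be tested. In LP their differences ranged from -1.19 to 0.90 on the log2 scale and all 9 missed the threshold. In ML Areg rose, Fgfr2 and Igf1r fell and 6 did not pass, where 14.5% of all genes rose and 12.4% fell. With depth-matched cells no call of the 7 then tested was left. Igf1r, a growth factor receptor, had no count in cycling ML and 35 in the other ML cells, so it was at least 2.44-fold lower. It was too low to be tested with depth-matched cells, and did not pass with the shallower cycling cells, those at or below their median total (adjusted p = 0.145). Fgfr2 fell by 0.80 (adjusted p = 0.00143), and by 0.52 with depth-matched cells, which did not pass (adjusted p = 0.198).

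Secreted factors linked to progesterone were read across the stages as levels, without a test. Rspo1, an enhancer of Wnt signalling (chromosome 4, plus strand, from 124986430 to 125009099 in mm10), had 112 counts in cycling LP of the diestrus library, or 283 CPM without TMM (exact Poisson interval 233 to 341), against 65.0 CPM (49.6 to 83.7) in LP cells with 0 of the genes. It was seen in 24 of 39 cycling LP cells (61.5%) and 13.4% of the others, and in 36.8% (21.8 to 54.0) against 10.1% (6.28 to 15.2) after thinning. In puberty it had 2 counts, in 1 of 61 cells, and in estrus 0 counts in cycling LP, where 0 of 13 cells allows a share of cells with a count of up to 23.1%. Such limits, set at 3 cells, concern cells with a count and not cells that express the gene. Cycling ML cells of diestrus had no count of it in 52 cells, which allows such a share of up to 5.77%. Calca, the calcitonin gene, had no count in any luminal class of puberty or estrus, where 0 of 153 and 0 of 55 cycling ML cells allow shares with a count of up to 1.96% and 5.45%. In diestrus it had 430 CPM (377 to 488) in cycling ML and 311 CPM (289 to 335) in the others, and 28.8% (17.1 to 43.1) against 14.5% (11.4 to 18.0) of the thinned cells. Tnfsf11, the RANK ligand and a mediator of progesterone, had 80.1 CPM (58.2 to 108) in cycling ML of diestrus and 80.6 CPM (69.3 to 93.1) in the other ML cells, with 15.4% (6.88 to 28.1) and 9.38% (6.90 to 12.4) of the thinned cells. The intervals of the thinned shares did not overlap for Rspo1 and overlapped for Calca and Tnfsf11. They treat the cells of 1 library as independent and do not cover the spread between mice, so no difference is read. Counts of 1 cell are not independent, so the Poisson intervals of the levels are too narrow, and no difference is read from them. In thinned basal cells of diestrus, 0.17% had a Rspo1, 0.509% a Calca and 0.17% a Tnfsf11 count.

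**Figure D4:**
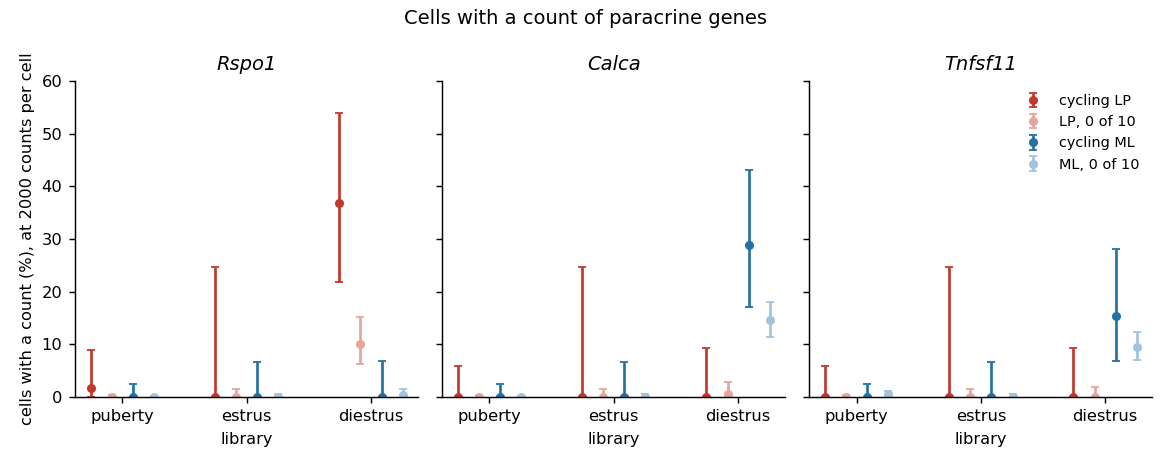
Share of cells with a count of Rspo1, Calca or Tnfsf11, in percent, after cells with at least 2000 counts were thinned to 2000, with classes set from all counts. Points are shares and bars exact 95% intervals for each class and library. In the diestrus library Rspo1 stands at 36.8% in cycling LP and 10.1% in the other LP cells, and Calca at 28.8% in cycling ML and 14.5% in the other ML cells.

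Regulators of G1 phase, which govern entry into S phase, moved in both directions. Of 17 measured, 6 rose and 5 fell in cycling LP, and 8 rose and 2 fell in cycling ML. Over all genes tested 9.69% rose in LP and 14.5% in ML, and 12.4% fell in each. Ccnd1, the cyclin D1 gene, had 464, 491 and 374 CPM in cycling LP against 251, 112 and 286, and rose by 1.03 (SE 0.22, adjusted p = 0.00195). Its partner kinase gene Cdk4 rose by 1.20, from 175, 169.7 and 316 to 406, 484 and 615 CPM. In ML Ccnd1 rose by 0.73 and Cdk4 by 0.72, but with depth-matched cells neither passed, at 0.19 (adjusted p = 0.684) and 0.32 (adjusted p = 0.321). Ccnd1 had 254, 165 and 155 CPM in cycling ML. The CDK inhibitor genes did not move as a group. Cdkn2d rose by 2.93 in LP and 2.0 in ML and Cdkn2c by 2.02 in ML, whereas Cdkn1a, the gene of p21 (chromosome 17, 29090976 to 29100727, plus strand), fell by 1.67 in LP. The antiproliferative gene Btg2 fell by 2.24 in LP and 1.47 in ML, and Btg1 by 1.53 and 0.48. With depth-matched cells Btg2 fell by 1.45 in LP, and Btg1 in ML did not pass, at -0.42 (adjusted p = 0.189). Myc fell by 1.72 in LP. The retinoblastoma gene Rb1 fell by 1.46 in LP, and with depth-matched cells it stood at -1.19, which did not pass (adjusted p = 0.217). With depth-matched cells 3 rose and 4 fell in LP and 3 rose and 1 fell in ML, of 14 measured. Of all 5815 genes in that fit 332 rose and 273 fell in LP, and 454 rose and 247 fell in ML.

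Of 16 genes of ribosome biogenesis 7 rose in cycling LP and 10 in cycling ML, and 0 fell in either. Over all genes tested 9.69% rose in LP and 14.5% in ML, and 12.4% fell in each. Nhp2, a subunit of the pseudouridylation complex, had 609.8, 438 and 548 CPM against 324, 161 and 340.2 in LP and rose by 0.97 (adjusted p = 4.02e-05). Nolc1, a nucleolar chaperone, rose by 0.78 in LP and 1.12 in ML, and in LP it did not pass with depth-matched cells, at 0.47 (adjusted p = 0.36). With depth-matched cells 1 of 15 rose in LP and 3 of 15 in ML, against 332 and 454 of all 5815 genes. The LP count is thus close to the share over all genes.

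Luminal structural genes and early response genes were mostly lower in cycling cells when set against all comparison cells. With depth-matched cells most of these calls remained only for the early response genes in ML. Of 11 genes that both luminal lineages share, 8 fell in LP and 6 in ML and 0 rose. Over all genes tested 12.4% fell in each lineage, and 9.69% rose in LP and 14.5% in ML. Krt18, a luminal keratin, had 5972, 4195 and 3281 CPM in cycling LP against 12869, 9201 and 6353, and fell by 1.07 (adjusted p = 7.22e-08). It fell by 0.61 in ML. With depth-matched cells 1 of the 11 genes fell in LP and 2 in ML, against 273 and 247 of all 5815 genes. Of 12 immediate early and heat shock genes 9 fell and 1 rose in LP, and 10 fell and 2 rose in ML. Jun had 638, 1184 and 1053 CPM in cycling LP against 2061, 4495 and 2987, and fell by 1.71 in LP and 1.24 in ML. Against depth-matched cells it fell by 0.88 and 0.75. Fos fell by 1.0 in LP and 1.62 in ML, and Hspa1a by 1.76 and 2.60. In LP neither Fos nor Hspa1a passed against depth-matched cells, where Fos stood at 0.11 (adjusted p = 0.830) and Hspa1a at 0.62 (adjusted p = 0.509). In ML Fos fell by 1.02 in that fit. There 3 of 11 genes fell in LP and 9 in ML. The chaperone gene Hsp90aa1 went the other way and rose by 0.91 in LP and 0.94 in ML, and by 1.06 and 1.05 with depth-matched cells. Other genes named by rule as lower were Malat1, a nuclear noncoding RNA, which fell by 1.99 in LP and 2.05 in ML and by 1.18 and 1.11 with depth-matched cells, Ramp1 and Gm13889 in LP, and Eif4a2, Gadd45g, Tmem59 and Tph1 in ML. Tph1, which makes the serotonin precursor, had 58.7, 238 and 128 CPM in cycling ML against 209, 690.2 and 429. It fell by 1.70, and by 0.99 with depth-matched cells.

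The difference between cycling cells and the others was tested for being unequal in LP and ML. The interaction passed for 11 genes with a higher value in LP (0.137% of those tested) and 41 with a lower one (0.511%). Its scaling by DESeq2 size factors gave 13 and 27, a share of 32.5% higher against 21.2%. With depth-matched cells 1 and 7 passed. Ramp1, a partner protein of calcitonin family receptors (chromosome 1, 91179822 to 91225196, plus strand), had 30.8, 45.8 and 30.4 CPM in cycling LP against 329, 460.2 and 231 in LP cells with 0 of the genes, and 54.6, 47.6 and 26.7 against 45.5, 30.8 and 22.9 in ML. It was thus low in every class but the LP cells with 0 of the genes, and the interaction was -3.67 ± 0.35 on the log2 scale (SE, n = 3 libraries, adjusted p = 2.62e-05). Cyb5a, the cytochrome b5 gene, had an interaction of -2.40, and its level in cycling LP, 187, 144 and 119 CPM, was close to that of the ML sums, 133 to 182 CPM. Mfge8, a milk fat globule protein gene, had 1008, 929 and 1299 CPM in cycling LP against 4581, 5393 and 4322, while the ML sums were between 63.5 and 116 CPM. The interaction of Mfge8 was -1.86. Cdkn1a had 209, 209 and 154 CPM in cycling LP against 648, 655 and 453, and 259, 127 and 121 in cycling ML against 250.3, 130 and 118. The interactions of Ramp1, Cyb5a and Cdkn1a passed with depth-matched cells (adjusted p = 0.0389, 0.0196 and 0.0187), and the value of Ramp1 was then -2.35. That of Mfge8 did not pass, at -0.81 (adjusted p = 0.529). With the shallower cycling cells Ramp1 and Cyb5a passed. Mfge8 and Cdkn1a did not, at -1.16 (adjusted p = 0.0594) and -1.09 (adjusted p = 0.391).

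**Figure D5:**
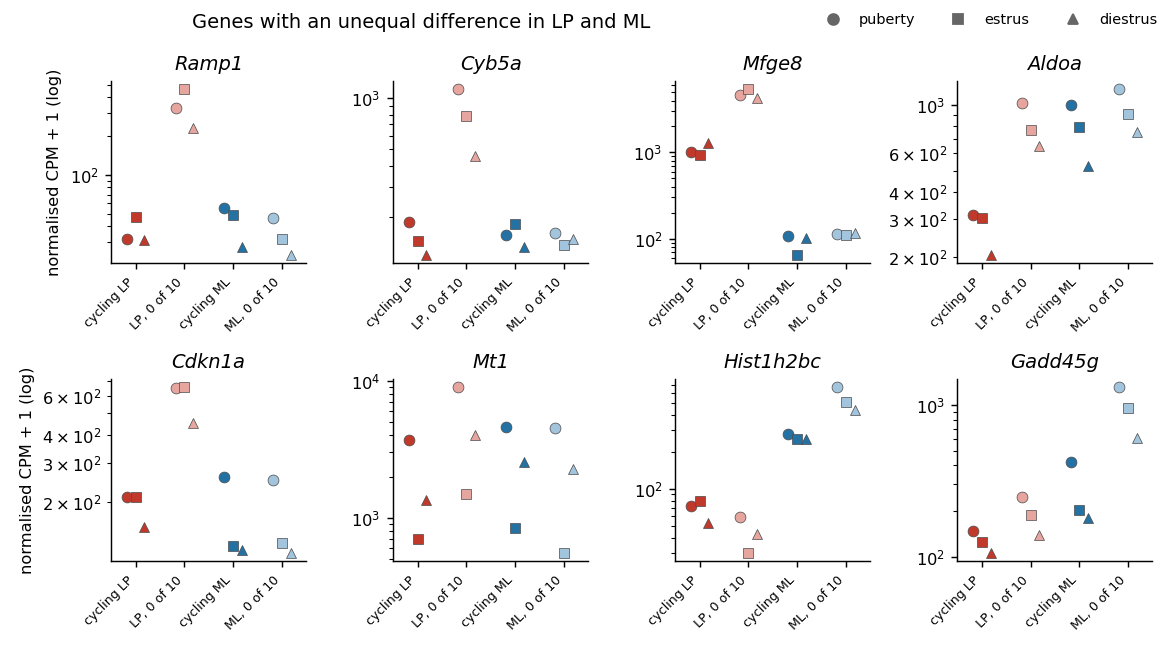
Normalised CPM plus 1, on a log axis, of 8 genes whose difference between cycling cells and cells with 0 of the 10 genes was unequal in LP and ML; each symbol is 1 library. Ramp1, Cyb5a, Mfge8, Aldoa, Cdkn1a and Mt1 are lower in cycling than in other LP cells of each library, and Hist1h2bc and Gadd45g are lower in cycling than in other ML cells.

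Among the 11 genes with a positive interaction, Hist1h2bc, a histone H2B gene, had 71.9, 78.5 and 51.5 CPM in cycling LP against 58.5, 29.3 and 41.8, and 277, 254 and 251 in cycling ML against 669, 507 and 438. Gadd45g, a growth arrest gene, fell in ML from 1315, 957 and 604 to 422, 201 and 178 CPM. The set named by rule also held Clca3a2, Cav2, Ddah2 and Ptn. For Ptn, the LP sums of 44.9 to 144 CPM stood far below those of ML, between 4436 and 11918.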

How the data were processed

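The authors aligned and counted the 10x Chromium 3′ reads with Cell Ranger 2.0 on mm10 and deposited 1 matrix of whole-number UMI counts per gene and cell barcode for each library. The first puberty table, the estrus table and the diestrus table were used. The cells, gene lists and tests were chosen with earlier results of these data known. No doublet caller was run and no cell was removed beyond the stated rule. Counts were summed per library and class (12 sums), and genes with low counts were filtered by edgeR's filterByExpr. edgeR 4.0.16 in R 4.3.3 fitted all sums together with TMM scaling and the library as a block. The quasi-likelihood test was adjusted by Benjamini-Hochberg over 8042 genes, among them 24 genes of the rule. Those 24 were left out only when calls were counted, over 8018 genes. Each of the 3 libraries gave 1 value per class. Genes named beyond the lists were the 6 in each direction with the smallest p, an adjusted p under 0.05, a log2 difference of at least 1 and 1 direction in 3 of 3 libraries, in no list of rule or division genes. Genes of the lists could also be named, and 1 gene that the rule named is not reported here. Levels printed with intervals were CPM of the class total, and a count of 0 was given a limit of 3 counts. The fit was tested on simulated data. Gene positions came from GENCODE on GRCm38, and promoters from RefSeq. Alternatives were other rules, a thinned or depth-matched set of cells, DESeq2 1.42.0, other scaling, no block, no filter and each library left out.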

Additional observations from a re-analysis of the deposited data

Results flagged for a closer look

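The difference between cycling cells and cells with 0 of the division genes was unequal in LP and ML by edgeR's quasi-likelihood test of the interaction for the genes named above. The interaction, as the log2 difference in LP minus that in ML, was -3.67 for Ramp1, -2.40 for Cyb5a, -1.86 for Mfge8, -1.71 for Cdkn1a, -1.59 for Mt1, -1.29 for Aldoa and -1.05 for Btg1. It was 2.65 for Clca3a2, 1.57 for Hist1h2bc, 1.52 for Ddah2, 1.51 for Cav2, 1.48 for Ptn and 1.24 for Gadd45g. With depth-matched cells Ramp1 (-2.35), Cyb5a (-2.27) and Cdkn1a (-1.81) passed. The others did not, at -0.81 for Mfge8, -1.14 for Mt1, -0.96 for Aldoa, -0.71 for Btg1, 1.91 for Hist1h2bc, 1.98 for Clca3a2, 1.14 for Gadd45g, 1.49 for Cav2, 1.65 for Ddah2 and 1.23 for Ptn. The values of Hist1h2bc and Ddah2 were thus larger and that of Cav2 nearly equal, on as few as 4 comparison cells in 1 library. The part of depth in the lost calls was not tested. With cycling cells at or below their median total Ramp1, Cyb5a, Mt1, Aldoa and Ptn passed. Those that did not pass were Cdkn1a (-1.09, adjusted p = 0.391), Mfge8 (-1.16), Btg1 (-1.02), Clca3a2 (2.38), Cav2 (1.64), Hist1h2bc (1.56), Gadd45g (1.02) and Ddah2 (0.91).

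The share of cycling cells in LP minus that in ML was -1.75 percentage points in puberty, -3.33 in estrus and 5.53 in diestrus. It had 1 sign in 2 libraries and the opposite sign in diestrus, and the difference between stages was not tested, since each stage was 1 library.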

How the results depend on the processing

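Of 111 results for named genes, 66 had the same call in every alternative and 43 lost it in at least 1. With depth-matched cells the direction turned for Fos (0.11) and Hspa1a (0.62) in LP and for Areg (-0.0326) in ML. Those values rest on as few as 4 comparison cells in 1 library. Genes higher and lower numbered 505 and 474 in LP and 645 and 395 in ML without the library block, 332 and 273 and 454 and 247 with depth-matched cells, and 512 and 514 in LP and 547 higher in ML with cycling cells at or below their median total, an alternative chosen after seeing the data. For cycling LP against cycling ML, 544 were lower without the block and 596 with depth-matched cells, and 507 were higher and 459 lower with the shallower cycling cells. Interactions higher and lower in LP were 0 and 4 without the block, 1 and 7 with depth-matched cells, and 38 and 130 without the low-count filter. Higher ones were 24 by the DESeq2 Wald test, 7 with at least 4 of 10 genes and 6 with the second puberty table. Lower ones were 27 with DESeq2 size factors, 24 with 0 of 7 basal genes and 9 with the shallower cells. The share of calls that were higher went from 43.9% to 54.9% in LP and from 53.9% to 64.8% in ML with depth-matched cells, and in ML to 41.6% with 0 of 7 basal genes and 43.1% with the shallower cells. With 1 library left out, counts ranged from 471 (without puberty) to 567 higher and 552 (without puberty) to 785 lower in LP, 762 to 836 higher and 622 to 740 lower in ML, 544 to 677 higher and 452 (without puberty) to 776 lower between cycling LP and ML, and 1 (without estrus) to 7 higher and 12 (without estrus) to 24 lower for the interaction, with fewer samples. Cycling shares with Mki67 alone were 3.03%, 1.24% and 6.71% in LP and 3.69%, 4.41% and 3.81% in ML. Thinned, they were 3.33%, 1.74% and 8.33% in LP and 5.03% and 4.41% in ML of puberty and diestrus. With at least 2 of 10 genes the ML shares were 9.90%, 9.49% and 11%. The puberty ML share was 6.09% with 2 own and 0 other lineage genes, and the diestrus LP share 9.28% with 0 of 7 basal genes. Where no cause is given, the cause was not tested. The classes of a library were paired by the library block. No paired analysis was possible because, for the stages, each had 1 library and nothing links the libraries. The estrus LP values rest on 13 cycling cells.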
